A study of Mus musculus with 6 samples.

Results

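The prostaglandin synthesis and breakdown enzymes are described here across CTL and Nelfb-/- cells. They are 10 genes that make or break down these lipids, Pla2g4a, Ptgs1, Ptgs2, Ptges, Ptges2, Ptges3, Ptgds, Hpgds, Ptgis and Hpgd, and they were taken from the deposited expression table by gene symbol. All 10 were among its 17924 genes, and all 10 passed the filter on low values, Ptgds only through the Nelfb-/- cells.

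Nelfb encodes a subunit of the negative elongation factor, which holds RNA polymerase II in a paused state shortly after initiation. Nelfb-/- cells carried Nelfb fl/fl with Pdgfra-Cre+, and CTL cells carried Nelfb fl/wt or Nelfb wt/wt with Pdgfra-Cre+, so that the Cre transgene, driven by the promoter of a receptor of fibroblasts and preadipocytes, was shared by both groups. Dermal fibroblasts were isolated from dorsal skin of newborn C57BL/6J mice and kept for 14 days in a commercial adipocyte differentiation medium (Stemcell Technologies) with adipocyte supplement and antibiotics before total RNA was sequenced, with 3 biological replicates per group. Which CTL genotype a library came from, whether animals were pooled and which agents the medium and supplement contained are not given in the sources used here.

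Values are in counts per 1e+06 (CPM), the reads of a gene for every 1e+06 reads on the genes of the table, uncorrected for gene length. Depth lay between 17.2 M and 29.4 M reads per library (M, 1e+06), and 3 reads, taken as the floor of detection, were worth 0.102 to 0.175 CPM. Nelfb, the targeted gene, lay at 17.3, 19.6 and 22.3 CPM in the CTL libraries (replicates 1 to 3, the order kept below) and at 5.50, 3.90 and 5.55 CPM in the Nelfb-/- libraries. The 12 adipocyte markers that were listed, Adipoq and Plin1 among them, were all detected in both groups, and summed to 45538, 41147 and 26347 CPM in the CTL libraries against 21005, 31349 and 26722 CPM in the Nelfb-/- libraries. Of these 12, 9 had a lower and 3 a higher estimate in Nelfb-/- cells (median log2 fold change -0.65, beside 0.068 for all genes), and Adig fell (-1.55, adjusted p = 0.0119, and 0.0609 without Nelfb-/- replicate 3) while the other 11 did not pass. Fabp4 and Lpl were the largest parts of the adipocyte sums in every library. In the Nelfb-/- cells Adipoq, Plin1, Fabp4, Cidec, Lipe and Car3 had the library order of the sums, and the other adipocyte markers did not. The libraries did not group by genotype alone. The first principal component (59.9% of the variance) separated CTL from Nelfb-/- cells, and the second (27.7%) had CTL replicate 3 and Nelfb-/- replicate 1 at its opposite ends. Results that rest on these libraries are therefore also given without them.

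Prostaglandins are local lipid signals. Phospholipase A2 enzymes free arachidonate from membrane phospholipids, the cyclooxygenases Ptgs1 and Ptgs2 turn it into the unstable intermediate prostaglandin H2, and terminal synthases convert that intermediate into prostaglandin E2, prostaglandin D2, prostacyclin or thromboxane. The signal is ended by uptake and by oxidation of the prostaglandin, the step that Hpgd catalyses. In adipose tissue, prostaglandin E2 is known to restrain lipolysis, prostaglandin F2 alpha to oppose adipocyte differentiation, and prostacyclin and metabolites of prostaglandin D2 to favour it.

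The promoters of the 3 genes that passed the threshold below (Ptges, Ptgds and Hpgd) and of Hpgds, which had the largest fold change of the 10, are shown because NELF acts close to the start site and these genes had the lowest adjusted p of the 10. Each is the 250 bases before the RefSeq start on GRCm38.p6, written 5′ to 3′ on the strand of the gene, and capitals mark a match to a motif that was searched. Ptges lies at chr2:30903298-30903547 on the minus strand, Ptgds at chr2:25469750-25469999 on the minus strand, Hpgds at chr6:65144731-65144980 on the minus strand and Hpgd at chr8:56294302-56294551 on the plus strand.
Ptges: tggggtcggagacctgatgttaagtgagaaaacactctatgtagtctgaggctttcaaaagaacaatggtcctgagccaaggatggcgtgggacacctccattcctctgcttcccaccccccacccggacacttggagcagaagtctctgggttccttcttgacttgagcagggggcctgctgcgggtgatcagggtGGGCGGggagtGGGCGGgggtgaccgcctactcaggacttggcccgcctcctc
Ptgds: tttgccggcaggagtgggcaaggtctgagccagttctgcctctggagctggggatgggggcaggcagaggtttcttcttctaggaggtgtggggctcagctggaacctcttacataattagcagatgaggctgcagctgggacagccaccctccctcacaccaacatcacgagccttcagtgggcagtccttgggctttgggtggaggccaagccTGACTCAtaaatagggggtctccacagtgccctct
Hpgds: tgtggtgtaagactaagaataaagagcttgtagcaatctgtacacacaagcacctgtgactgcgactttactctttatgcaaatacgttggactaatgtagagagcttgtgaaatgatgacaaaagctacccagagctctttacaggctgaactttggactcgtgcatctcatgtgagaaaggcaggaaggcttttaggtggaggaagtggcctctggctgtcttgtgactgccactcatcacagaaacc
Hpgd: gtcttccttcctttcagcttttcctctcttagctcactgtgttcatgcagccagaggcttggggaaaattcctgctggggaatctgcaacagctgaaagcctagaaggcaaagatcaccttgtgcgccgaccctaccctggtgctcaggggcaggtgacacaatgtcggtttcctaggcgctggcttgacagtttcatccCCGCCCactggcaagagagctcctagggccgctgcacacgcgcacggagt
The capitals in Ptges are 2 GC boxes (GGGCGG), 53 and 42 bases before the start. Hpgd held 1 GC box on the opposite strand, 50 bases before the start, and Ptgds held 1 AP-1 element (TGANTCA, which reads alike on both strands), 35 bases before it. The TATA box (TATAAA), the CCAAT box (as named), the cyclic AMP response element (TGACGTCA) and the C/EBP element (TTGCGCAA) were also searched on both strands, and none of these 4 promoters held them. Hpgds held no match to any of the 6. Among 32851 RefSeq promoters of the same length, 32.7% held a GC box and 6.75% the AP-1 element. GC content was 59.6% for Ptges, 58.4% for Ptgds, 56.8% for Hpgd and 45.2% for Hpgds, beside a median of 52.4% over all promoters. A RefSeq promoter was matched for 9 of the 10 genes, Ptgis being the exception. The RefSeq starts of Ptges, Ptgds and Hpgds lie within the longer spans that the deposited table gives these genes, so that the windows of Ptges and Ptgds lie wholly and that of Hpgds mostly inside the gene.

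Ptges was lower in Nelfb-/- cells and passed under every setting that was run, and Hpgd was higher but missed the threshold in 4 of 6 fits that left out 1 library (adjusted p = 0.0545 to 0.0919), in which Ptges was the only enzyme that passed. Ptgds, at 3 to 6 reads in the CTL libraries, also passed the threshold as higher, but it entered the test only through the group where it was high, so that its call is given as a description, and the other 7 enzymes did not pass. Genes were tested with limma on log2 values, and a gene was called when its adjusted p was 0.05 or less and its level changed 2-fold or more. Leaving Ptgds aside, 1 of 9 enzymes rose, where 7.58% of all 16252 genes tested did, and 1 of 9 fell, where 3.64% did. In either direction it was 2 of 9 beside 11.2% of all genes. The shares over all genes keep genes of the kind that Ptgds is. Of the 1232 genes that rose, 280 had a CTL mean under the filter and 952 did not. The 3 Nelfb-/- libraries all lay above the 3 CTL libraries for 3 of these 9 enzymes (Hpgds, Hpgd and Pla2g4a) and all below them for 3 (Ptges, Ptges2 and Ptgs1), where 22.0% and 16.1% of all genes did so (38.1% in either direction). The median log2 fold change of the 9 was 0.05, beside 0.068 for all genes tested. Without both CTL replicate 3 and Nelfb-/- replicate 1 (a setting added once the data had been seen), 3 of the 9 enzymes that could be tested passed (Ptges, Hpgd and Hpgds), beside 27.0% of all genes in the same fit. An exact two-sided permutation test on 3 against 3 libraries cannot give a p below 0.10, so that every p here comes from the fit across all genes.

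**Figure D1:**
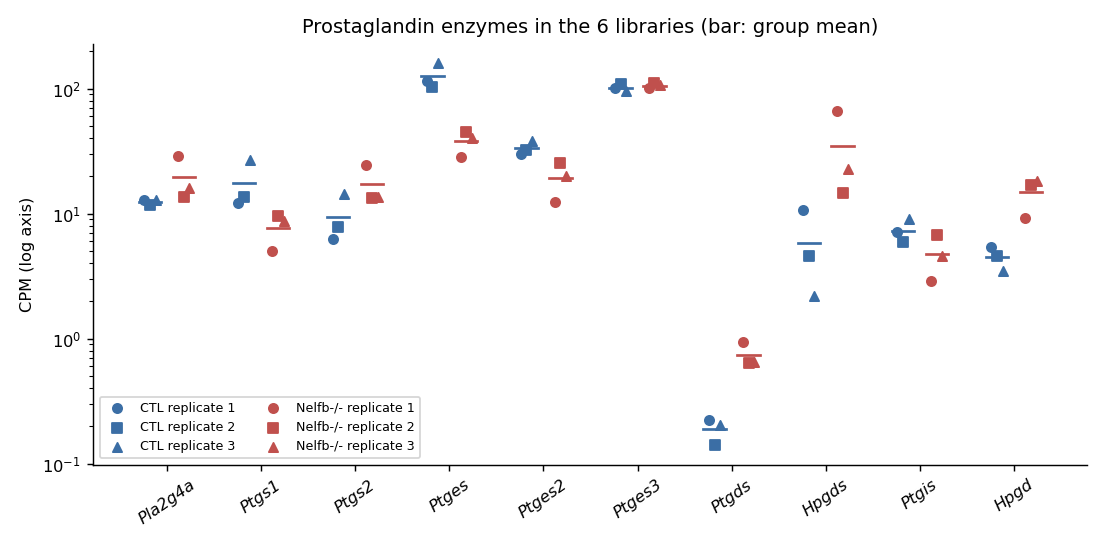
Levels of the 10 enzymes in each library, in CPM on a log axis, with CTL in blue, Nelfb-/- in red, a symbol for each replicate and a bar for the group mean (n = 3). Ptges lies at 103 to 160 CPM in CTL and 28.3 to 45.0 CPM in Nelfb-/- cells, and Ptges3 lies near 100 CPM in all libraries.

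Positions are given on GRCm38 as in the deposited table. Pla2g4a (ENSMUSG00000056220, chr1:149829618-149961290) encodes the cytosolic phospholipase A2 that releases arachidonate in response to calcium. It was measured at 12.8, 11.8 and 12.9 CPM in CTL and at 28.7, 13.6 and 16.1 CPM in Nelfb-/- cells. The CTL libraries lay close together and all below the Nelfb-/- libraries, of which replicate 1 stood far above the other 2. In log2 terms the difference was 0.56 (SE 0.29, 95% interval -0.13 to 1.26) and did not pass the threshold (adjusted p = 0.229). Without Nelfb-/- replicate 1 it was 0.25.

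The cyclooxygenases did not pass the threshold, and their estimates had opposite signs. Ptgs1 (ENSMUSG00000047250, chr2:36230426-36252272), the cyclooxygenase that most tissues express constitutively, was measured at 12.2, 13.6 and 27.0 CPM in CTL and at 5.03, 9.49 and 8.69 CPM in Nelfb-/- cells. The groups did not overlap, and CTL replicate 3 was the highest library. Ptgs1 had a log2 fold change of -1.14 (SE 0.39, 95% interval -2.06 to -0.22, adjusted p = 0.0943), which was -0.79 without CTL replicate 3 and -0.50 (adjusted p = 0.0218, under 2-fold) without both CTL replicate 3 and Nelfb-/- replicate 1.

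Ptgs2 (ENSMUSG00000032487, chr1:150100031-150108227), the inducible cyclooxygenase of inflammation, was measured at 6.22, 7.84 and 14.4 CPM in CTL and at 24.5, 13.4 and 13.6 CPM in Nelfb-/- cells. The groups overlapped, since CTL replicate 3 lay above Nelfb-/- replicates 2 and 3. Ptgs2 did not pass (log2 fold change 0.89, SE 0.38, 95% interval -0.03 to 1.81, adjusted p = 0.167). Without CTL replicate 3 it was 1.23 and passed (adjusted p = 0.0474), so that this library decided the call, and without Nelfb-/- replicate 1 as well it was 0.95 (adjusted p = 0.0034), under 2-fold.

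Of the 3 prostaglandin E synthases, only Ptges passed the threshold. Ptges (ENSMUSG00000050737, chr2:30889471-30929863) encodes the microsomal enzyme that is usually induced together with Ptgs2. It was measured at 115, 103 and 160 CPM in CTL and at 28.3, 45.0 and 40.0 CPM in Nelfb-/- cells. The lowest CTL library was above the highest Nelfb-/- library by more than the range within either group. The means were 126 ± 29.8 and 37.7 ± 8.59 CPM (SD, n = 3), and the log2 fold change was -1.74 (SE 0.24, 95% interval -2.32 to -1.16, adjusted p = 0.00848), that is 3.34-fold lower. Ptges passed under each of 17 alternative settings, with an adjusted p of 0.0112 to 0.0471 as single libraries were removed. Adipocyte marker sums had the library order of Ptges, Ptgs1, Ptges2, Ptges3 and Ptgis in the Nelfb-/- cells and of none of these 5 in the CTL cells, and the part of adipocytes in these levels was not tested.

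Ptges2 (ENSMUSG00000026820, chr2:32395896-32405772) encodes a second membrane-associated synthase. It was measured at 30.1, 32.4 and 37.8 CPM in CTL and at 12.4, 25.3 and 20.1 CPM in Nelfb-/- cells. All Nelfb-/- libraries lay below the CTL libraries, replicate 1 lowest. Ptges2 did not pass (log2 fold change -0.85, SE 0.27, 95% interval -1.51 to -0.19, adjusted p = 0.0837). Without both CTL replicate 3 and Nelfb-/- replicate 1 it was -0.47 (adjusted p = 0.0241), still under 2-fold.

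Ptges3 (ENSMUSG00000071072, chr10:128058954-128077272) encodes the cytosolic synthase, also known as the Hsp90 co-chaperone p23. It was measured at 102, 108 and 96.0 CPM in CTL and at 101, 110 and 106 CPM in Nelfb-/- cells, and the groups overlapped throughout. The log2 fold change was 0.05 (SE 0.12, adjusted p = 0.793), with a 95% interval of -0.23 to 0.34 that holds no 2-fold change in either direction. Its sign flipped when libraries were scaled by the median of ratios. A close copy, Ptges3-ps, was measured at 35.3 to 44.7 CPM over the 6 libraries (log2 fold change 0.04), and how reads were divided between the copies is not given in the sources used here.

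The prostaglandin D synthases are Hpgds and Ptgds. Hpgds (ENSMUSG00000029919, chr6:65117293-65144908), the glutathione-dependent synthase known from mast cells, macrophages and other haematopoietic cells, was measured at 10.6, 4.57 and 2.18 CPM in CTL and at 66.7, 14.6 and 22.9 CPM in Nelfb-/- cells. The groups did not overlap, but each spread several-fold, and Nelfb-/- replicate 1 stood far above the rest. The log2 fold change was 2.56 (SE 0.73, 95% interval 0.81 to 4.32) and missed the threshold (adjusted p = 0.0615). Without Nelfb-/- replicate 1 it was 1.94 (adjusted p = 0.0984), and without both that library and CTL replicate 3 it was 1.39 and passed (adjusted p = 0.0266). Over all alternatives the adjusted p lay between 0.0090 and 0.165.

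Macrophage markers were set beside Hpgds by library order. A group of 3 libraries has few possible orders, so that matches of order, here and elsewhere in the text, are descriptions only. All 13 listed macrophage markers were tested. Of these 11 rose, Aif1 passed but entered the test only through the Nelfb-/- libraries, and Cd68 did not pass (1.97 on the log2 scale, adjusted p = 0.158). Among the 11, Csf1r, C1qa and Fcgr1 passed in all 6 fits that left out 1 library. Each of the others missed the threshold in 2 to 4 of these fits. The 13 markers summed to 871, 458 and 245 CPM in the CTL libraries and to 7503, 2383 and 4041 CPM in the Nelfb-/- libraries. This is the library order of Hpgds in each group. In the Nelfb-/- libraries Pla2g4a, Ptgs2 and Ptgds also had this order, and Ptgs1, Ptges, Ptges2, Ptgis and also Ptges3, whose levels hardly varied, had the reverse order. In the CTL libraries none of these 8 had this order, and Ptgs1, Ptgs2 and Ptges2 had the reverse. Adipocyte marker sums, given above, had the reverse order in the Nelfb-/- libraries and the same order in the CTL libraries. The part of macrophages or adipocytes in the difference of any enzyme was not tested. In bulk RNA, more or fewer cells of a type and more or less RNA per cell cannot be told apart.

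Other cell type markers were also measured. Of 9 mast cell markers, Mcpt4, Tpsab1, Fcer1a and Ms4a2 have no value here, Cpa3 was at 0 to 0.136 CPM in CTL and 0.116 to 0.569 CPM in Nelfb-/- cells, and Kit, the only one tested, did not pass (adjusted p = 0.621). Mast cell markers summed to 3.38, 4.81 and 1.46 CPM in the CTL libraries and to 11.0, 2.50 and 3.26 CPM in the Nelfb-/- libraries, the library order of Hpgds in the Nelfb-/- but not in the CTL cells. Most of each sum was Kit, at 3.34, 4.71 and 0.748 CPM in CTL and at 7.49, 2.10 and 2.86 CPM in Nelfb-/- cells. Tpsb2 was at 1.80 CPM in Nelfb-/- replicate 1 and at most 0.102 CPM elsewhere. The part of these cells in the difference of Hpgds was not tested either. Of 7 melanocyte markers, Pmel rose, Mitf did not pass, and 5 (Dct, Tyr, Tyrp1, Mlana and Slc45a2) passed but entered the test only through the Nelfb-/- libraries, with Tyr and Slc45a2 at 0 in all CTL libraries. Melanocyte markers summed to 64.0, 73.7 and 48.6 CPM in the CTL libraries and to 169.6, 52.6 and 75.6 CPM in the Nelfb-/- libraries. Nearly all of the CTL sums was Mitf, at 62.8, 72.4 and 47.2 CPM in CTL and at 96.3, 21.6 and 26.8 CPM in Nelfb-/- cells. The other 6 melanocyte markers were each higher in every Nelfb-/- library than in any CTL library. Of 7 Schwann cell markers with values here 4 rose and 1 (Mbp) fell, with sums of 52.4 to 66.0 and 112 to 144 CPM. Of 9 endothelial markers 7 were tested, and the one that passed, Emcn, entered the test only through the Nelfb-/- libraries. The endothelial markers summed to 12.8, 8.87 and 8.40 CPM in CTL against 25.9, 9.66 and 12.3 CPM in the Nelfb-/- libraries. Melanocyte and endothelial sums had the library order of Hpgds in the Nelfb-/- cells, and endothelial sums also in the CTL cells. Of 8 keratinocyte markers 5 were tested. Dsp rose but missed the threshold in 4 of 6 fits that left out 1 library. Krt14 passed but entered the test only through the Nelfb-/- libraries. Keratinocyte markers summed to 3.34, 3.83 and 3.47 CPM in CTL against 8.34, 16.5 and 19.8 CPM in the Nelfb-/- libraries, so that the groups did not overlap.

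**Figure D2:**
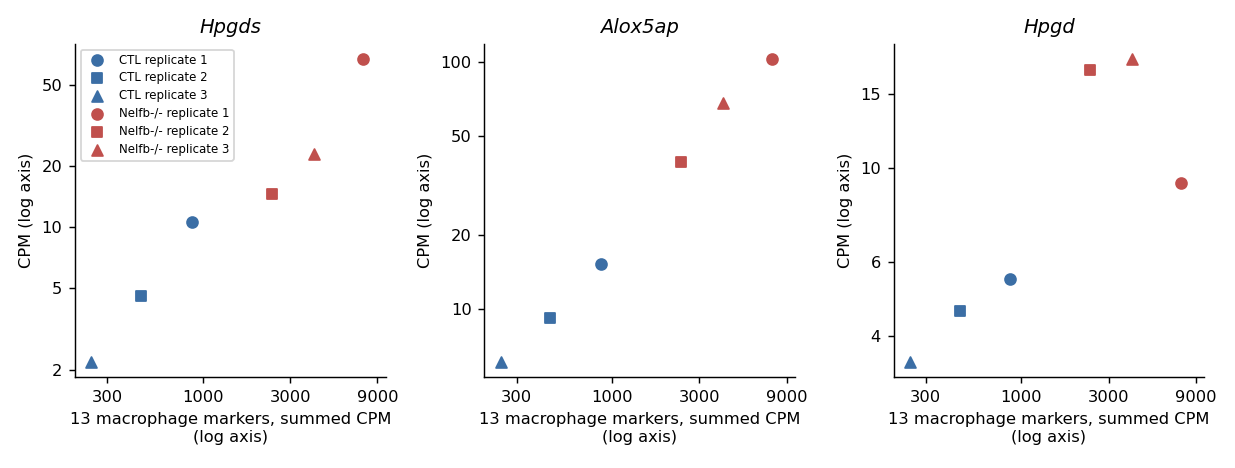
Levels of Hpgds, Alox5ap and Hpgd (CPM, log axes) against the summed level of 13 macrophage markers (CPM), 1 point for each library, with CTL in blue and Nelfb-/- in red. Hpgds and Alox5ap keep the library order of the marker sums in both groups, whereas Hpgd keeps it in CTL but is at 9.20 CPM in Nelfb-/- replicate 1, where the marker sum is highest (7503 CPM), and at 17.1 and 18.1 CPM in replicates 2 and 3.

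Ptgds (ENSMUSG00000015090, chr2:25466709-25470046), the lipocalin-type synthase, which is also a secreted carrier of lipophilic molecules, lay near the floor. Its CTL libraries held 5, 3 and 6 reads and its Nelfb-/- libraries 20, 11 and 16 reads. In CPM these were 0.226, 0.140 and 0.204 against 0.948, 0.640 and 0.653, and the groups did not overlap. The log2 fold change was 1.75 (SE 0.41, 95% interval 0.77 to 2.74, adjusted p = 0.0351). Ptgds passed, but it entered the test only because of the Nelfb-/- libraries, and it was below the filter when any of these was left out. Without CTL replicate 1 or CTL replicate 2 it missed the threshold, with an adjusted p of 0.0940 and 0.121, and on log2(CPM + 1) its log2 fold change was 0.55.

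Ptgis (ENSMUSG00000017969, chr2:167191805-167240604) encodes prostacyclin synthase. It was measured at 7.08, 5.88 and 8.99 CPM in CTL and at 2.89, 6.75 and 4.61 CPM in Nelfb-/- cells. The groups overlapped, since Nelfb-/- replicate 2 lay above CTL replicate 2. Its log2 fold change was -0.68 (SE 0.35, 95% interval -1.52 to 0.17, adjusted p = 0.236), and it was -0.37 without Nelfb-/- replicate 1.

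Hpgd (ENSMUSG00000031613, chr8:56294585-56321043) encodes the dehydrogenase that inactivates prostaglandins E2 and F2 alpha by oxidation. It was measured at 5.46, 4.57 and 3.47 CPM in CTL and at 9.20, 17.1 and 18.1 CPM in Nelfb-/- cells. All Nelfb-/- libraries lay above the CTL libraries, with replicate 1 below the other 2. The means were 4.50 ± 0.996 and 14.8 ± 4.87 CPM (SD, n = 3), and the log2 fold change was 1.67 (SE 0.33, 95% interval 0.89 to 2.45, adjusted p = 0.0204), that is 3.18-fold higher.

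In CTL cells Hpgd had the library order of the macrophage marker sums. In Nelfb-/- cells it did not, and its lowest library there had the highest marker sum. Summed fibroblast markers were lower in Nelfb-/- replicate 1 (13609 CPM) than in replicates 2 and 3 (38349 and 40734 CPM), the library order of Hpgd, and 6950 to 21674 CPM in CTL, where replicate 3 was highest and Hpgd was lowest. Keratinocyte marker sums, given above, had the library order of Hpgd in the Nelfb-/- but not in the CTL cells. The part of these cells in the difference of Hpgd was not tested. Hpgd missed the threshold without CTL replicate 1 (adjusted p = 0.0545), CTL replicate 2 (0.0740), Nelfb-/- replicate 2 (0.0755) or Nelfb-/- replicate 3 (0.0919), with log2 fold changes of 1.49 to 1.82. Without both CTL replicate 3 and Nelfb-/- replicate 1 the log2 fold change was 1.81 (adjusted p = 0.000247).

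**Figure D3:**
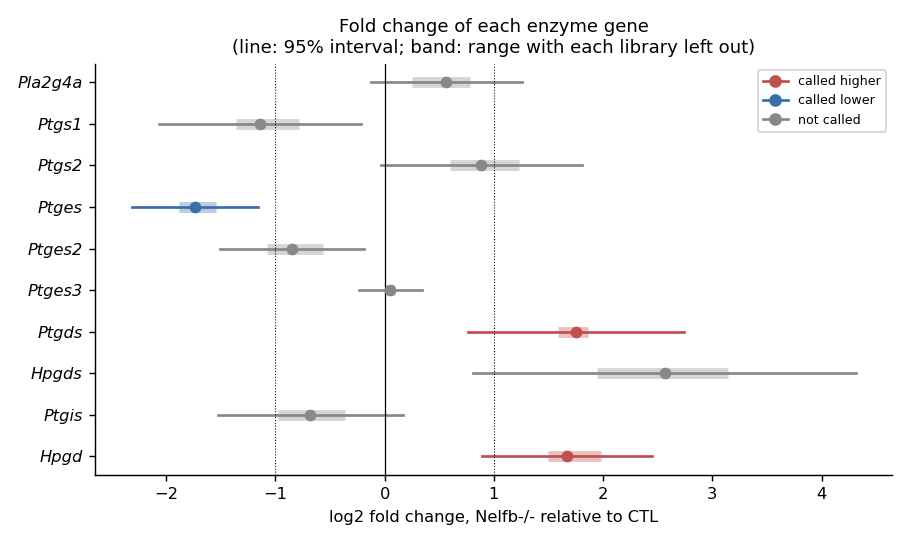
Log2 fold change of each enzyme in Nelfb-/- relative to CTL cells (point, limma), with its 95% interval (line) and the range of estimates when each library is left out (band). Dotted lines mark a 2-fold change. Ptges (-1.74) is called lower, Ptgds (1.75) and Hpgd (1.67) are called higher, and Hpgds (2.56) has the widest interval and is not called.

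To compare levels between genes, CPM were divided by the length of the merged exons in kb. In CTL cells the order of the mean levels per kb was Ptges3 (46.0), Ptges (32.0), Ptges2 (6.61), Ptgs1 (4.53), Ptgis (2.85), Hpgd (2.67), Ptgs2 (2.07), Pla2g4a (1.95), Hpgds (0.900) and Ptgds (0.115). The libraries of each neighbouring pair from Ptges2 down to Pla2g4a overlapped, while Ptges3, Ptges and Ptges2 were apart from each other, and so were Pla2g4a, Hpgds and Ptgds. In Nelfb-/- cells the order was Ptges3 (47.7), Ptges (9.60), Hpgd (8.79), Hpgds (5.41), Ptges2 (3.81), Ptgs2 (3.75), Pla2g4a (3.05), Ptgs1 (1.99), Ptgis (1.85) and Ptgds (0.453). Here only Ptges3 at the top and Ptgds at the bottom were apart from their neighbours.

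Of the summed CPM per kb of the 10 enzymes, Ptges held 30.7, 27.9 and 37.1% in CTL and 8.57, 12.9 and 11.8% in Nelfb-/- cells. Hpgd held 3.40, 2.88 and 1.88% in CTL and 6.52, 11.4 and 12.5% in Nelfb-/- cells. Hpgds held 12.4% in Nelfb-/- replicate 1 and at most 4.14% in any other library. These shares add to 100% within a library, so that a lower share of Ptges raises the others.

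**Figure D4:**
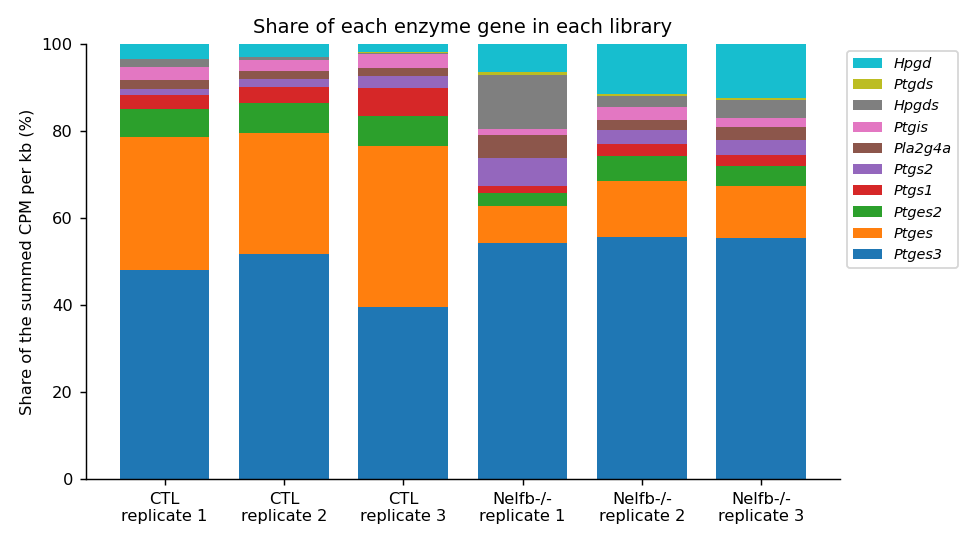
Share of each enzyme in the summed CPM per kb of the 10 enzymes, in percent, 1 stacked bar for each library. Ptges takes 27.9 to 37.1% of the CTL bars and 8.57 to 12.9% of the Nelfb-/- bars, and Ptges3 is the largest part of every bar.

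The other genes of the prostanoid pathway were listed by role, 43 in all, of which 29 have values here, 27 were tested and 7 passed the threshold (11.2% of all genes did), 5 of them higher (7.58%) and 2 lower (3.64%). Without both CTL replicate 3 and Nelfb-/- replicate 1 it was 12 of 26, beside 27.0% of all genes. The median log2 fold change of the 27 was 0.54, beside 0.068 for all genes tested. The lists were chosen with earlier results of these data known.

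Among 14 other genes of arachidonate release, 7 were tested and 2 fell, beside 3.64% of all genes. Plaat3, the phospholipase of adipocytes that is also known as AdPLA, was measured at 308, 304 and 150.0 CPM in CTL and at 50.7, 80.7 and 69.8 CPM in Nelfb-/- cells (log2 fold change -1.87, SE 0.33, adjusted p = 0.0155). CTL replicate 3 lay well below the other CTL libraries but above all Nelfb-/- libraries. Adipocyte marker sums, of which Fabp4 and Lpl were the largest parts, had the library order of Plaat3 in both groups. In the Nelfb-/- cells Fabp4 had this order, and Lpl and Adig did not. The part of adipocytes in the difference of Plaat3 was not tested. Plaat3 missed the threshold when CTL replicate 1 (adjusted p = 0.0593), CTL replicate 2 (0.0615) or Nelfb-/- replicate 3 (0.0665) was removed. Pla2g12a, a secreted phospholipase A2, was measured at 124, 127 and 148 CPM in CTL and at 44.7, 59.3 and 48.9 CPM in Nelfb-/- cells (-1.39, SE 0.16, adjusted p = 0.00548), and it passed under each of 17 alternatives.

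The release genes with the highest mean levels among the rest were Mgll and Pla2g6. Mgll, the monoacylglycerol lipase, was measured at 219 to 406 CPM in CTL and 102 to 373 CPM in Nelfb-/- cells and did not pass (log2 fold change -0.25, adjusted p = 0.774). Without both CTL replicate 3 and Nelfb-/- replicate 1 the sign of Mgll turned (0.62, adjusted p = 0.0030, under 2-fold). Pla2g6, a calcium-independent phospholipase A2, was at 36.9 to 42.0 and 22.9 to 28.6 CPM, and its adjusted p of 0.0298 came with a change under 2-fold (-0.65, SE 0.14).

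Of 6 other terminal enzymes, 4 were tested and 1 rose, beside 7.58% of all genes. Tbxas1, thromboxane synthase, was measured at 1.58, 1.07 and 0.374 CPM in CTL and at 15.3, 6.81 and 13.6 CPM in Nelfb-/- cells (log2 fold change 3.63, SE 0.57, adjusted p = 0.0119, and 0.0637 without Nelfb-/- replicate 3). Akr1b3, an aldose reductase with prostaglandin F synthase activity, was at 25.3 to 28.6 CPM in CTL and 45.6 to 51.1 CPM in Nelfb-/- cells, a change under 2-fold (0.87, SE 0.13, adjusted p = 0.00947). Cbr1, a carbonyl reductase that can convert prostaglandin E2 to F2 alpha, was at 199.6, 250.7 and 51.5 CPM in CTL and at 82.9, 38.4 and 33.1 CPM in Nelfb-/- cells and did not pass (adjusted p = 0.158). CTL replicate 3 lay among the Nelfb-/- libraries for this gene, and without it Cbr1 passed (-2.24, adjusted p = 0.0201), as it did without Nelfb-/- replicate 1 as well (-2.65), with array quality weights (-2.53, adjusted p = 0.00024) and with a replicate block (adjusted p = 0.0458).

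None of the 5 genes of transport and further breakdown passed the threshold, beside 11.2% of all genes. The adjusted p lay between 0.0686 (Ptgr2) and 0.330 (Abcc4). Without CTL replicate 3 the transporter Abcc4 passed (-1.33, adjusted p = 0.0363), and without Nelfb-/- replicate 1 as well Abcc4 (-1.62) and the uptake carrier Slco2a1 (1.99) passed, beside 27.0% of all genes in that fit. With array quality weights Abcc4 (-1.53) and Slco2a1 (1.75) passed as well. Ptgr2, a reductase that acts on the products of Hpgd, was at 85.4 to 130.4 CPM in CTL and 51.9 to 68.6 CPM in Nelfb-/- cells (-0.70, SE 0.21), and the groups did not overlap. Zadh2, a further prostaglandin reductase, was at 52.3 to 73.9 and 66.6 to 79.0 CPM (0.32, SE 0.18, adjusted p = 0.262), and the groups overlapped.

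Of 9 prostanoid receptors, 7 were tested and 2 rose, beside 7.58% of all genes. Ptger4, a receptor for prostaglandin E2 that raises cyclic AMP, was measured at 4.88, 5.37 and 7.11 CPM in CTL and at 17.8, 17.2 and 16.9 CPM in Nelfb-/- cells (log2 fold change 1.59, SE 0.20, adjusted p = 0.00637). Its groups were far apart and tight, and it passed under each of 17 alternatives. Ptgfr, the receptor for prostaglandin F2 alpha, was measured at 9.31, 12.3 and 10.4 CPM in CTL and at 26.5, 68.8 and 65.5 CPM in Nelfb-/- cells (2.21, SE 0.38, adjusted p = 0.0145). Ptgfr missed the threshold, at 0.0507 to 0.0681, when CTL replicate 1, CTL replicate 2, Nelfb-/- replicate 2 or Nelfb-/- replicate 3 was removed. Ptger3, a receptor that lowers cyclic AMP, had the highest mean level of the other receptors and was measured at 11.3, 12.7 and 53.6 CPM in CTL and at 7.63, 44.7 and 88.2 CPM in Nelfb-/- cells. CTL replicate 3 was the highest and Nelfb-/- replicate 1 the lowest library of its group, the groups overlapped, and it did not pass (0.66, 95% interval -1.74 to 3.05, adjusted p = 0.689). Without both of these libraries Ptger3 passed (2.39, SE 0.30, adjusted p = 0.00093), and so did the thromboxane receptor Tbxa2r (2.42), which also passed with array quality weights (2.38). Ptgir, the prostacyclin receptor, was at 11.4 to 14.1 and 13.4 to 32.9 CPM (0.64, adjusted p = 0.245), and the prostaglandin D2 receptors Ptgdr and Ptgdr2 have no value here.

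Of 9 genes of the lipoxygenase and leukotriene branch, which competes for the same arachidonate, 4 were tested and 2 rose, beside 7.58% of all genes. Alox5, the lipoxygenase that starts leukotriene synthesis, was measured at 1.67, 0.653 and 0.986 CPM in CTL and at 18.1, 8.03 and 17.4 CPM in Nelfb-/- cells (log2 fold change 3.67, SE 0.46, adjusted p = 0.00663). Alox5ap, its activating protein, was measured at 15.2, 9.24 and 6.12 CPM in CTL and at 103, 39.5 and 68.3 CPM in Nelfb-/- cells (2.77, SE 0.44, adjusted p = 0.0122). Alox5ap missed the threshold without CTL replicate 2 (adjusted p = 0.0514) or Nelfb-/- replicate 3 (0.0630). Both genes, like Tbxas1, are known from myeloid cells, and in the Nelfb-/- libraries all 3 were highest in replicate 1 and lowest in replicate 2, the order of the macrophage marker sums given above. In the CTL libraries Tbxas1 and Alox5ap had the order of these sums and Alox5 did not. The part of these cells was not tested. Lta4h and Ltc4s, which convert the product of Alox5 into leukotrienes, were at 50.3 to 65.3 and 45.7 to 49.8 CPM and at 10.2 to 11.6 and 7.10 to 8.84 CPM, and neither passed (adjusted p = 0.287 and 0.106).

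**Figure D5:**
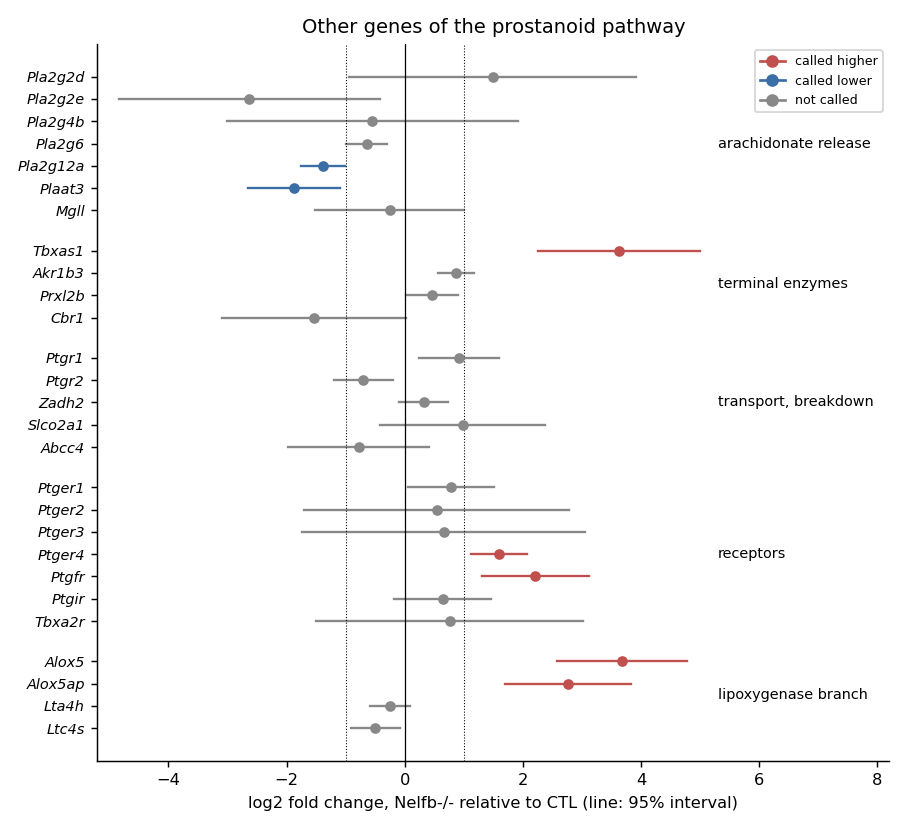
Log2 fold change of the 27 other tested genes of the prostanoid pathway in Nelfb-/- relative to CTL cells (point, limma) with 95% intervals (lines), grouped by role. Dotted lines mark a 2-fold change. Plaat3 (-1.87) and Pla2g12a (-1.39) are called lower, and Tbxas1 (3.63), Alox5 (3.67), Alox5ap (2.77), Ptgfr (2.21) and Ptger4 (1.59) are called higher.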

How the data were processed

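Total RNA of CTL and Nelfb-/- cells, 3 libraries each, was sequenced by the authors. Per the labels, STAR (2.7), Partek (9.0.20.0202) and the mm10 build were used. How reads were counted, whether strand was used and how reads shared between copies were handled are not given in the sources used here, so that genes annotated across Ptgs1, Hpgds and Ptgis on the opposite strand cannot be told apart from them. The deposited values are CPM with an offset of 0.0001 added, and genes with fewer than 10 reads in every library were already absent. Of the values up to 20 reads, 72.6 to 75.2% were whole multiples of 1 read (tolerance 0.05 reads), so that no count-based test was run.

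The offset was subtracted and values were multiplied by the geometric mean depth (22.3 M reads; M, 1e+06). Genes averaging 10 reads or more (0.448 CPM) entered limma (version 3.58.1 in R 4.3.3), which was run on log2(value + 1) with an abundance trend, with Benjamini-Hochberg adjustment over these genes. Fold changes are on this scale, which understates those of low genes. The fit was tested on simulated data. Intervals are 95% intervals of limma and floors cover counting error only. Gene spans are those of the deposited table, and Ensembl IDs, merged exons and overlaps come from GENCODE vM21 (GRCm38). Alternatives were other pseudocounts, filters, scalings, weights and fold limits, a replicate block and leaving out each library. The members and lists were chosen with earlier results of these data known. The text names all members, Nelfb, and from each pathway list the genes that passed and up to 2 others of the highest mean level, with markers of the listed cell types beside a member they move with. Abcc4, Slco2a1, Tbxa2r and Adig were named after their values were seen.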

Additional observations from a re-analysis of the deposited data

How the results depend on the processing

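The count of enzymes called was 3 of 10, with Ptgds among them although it entered the test only through the Nelfb-/- libraries. Leaving Ptgds aside it was 2 of 9, beside 11.2% of all genes. With Ptgds counted where it passed, the count was 1 to 4 with single libraries left out, and between 2 and 4 under the other settings. Without CTL replicate 1, CTL replicate 2, Nelfb-/- replicate 2 or Nelfb-/- replicate 3 only Ptges was called. The count of other pathway genes called was 7, 3 to 9 with single libraries left out, 13 with array quality weights and 12 without both CTL replicate 3 and Nelfb-/- replicate 1, a setting added once the data had been seen. Of all genes tested 1824 were called, 426 to 2479 with single libraries left out, 4318 with array quality weights and 4383 without both of these libraries. A fit on fewer samples has fewer degrees of freedom, and the causes of the other shifts were not tested. The log2 fold change of Ptges3 reversed to -0.012 with scaling by the median of ratios. Mgll reversed to 0.46 with array quality weights and to 0.62 without both libraries, and lay between -0.60 and 0.33 with single libraries left out, reversing without CTL replicate 3 (0.028) or Nelfb-/- replicate 1. Ptger3 lay between -0.094 and 1.67, reversing without Nelfb-/- replicate 3, and was called with array quality weights (2.41) and without both libraries (2.39). Ptgds missed the threshold with quantile normalization (adjusted p = 0.0869), on log2(CPM + 1) and when CTL replicate 1 or 2 was left out, and had too few reads to be tested at a mean of at least 1 CPM. Hpgds passed with array quality weights (1.56, adjusted p = 0.0139). The median log2 fold change of all genes was 0.068, 0.0025 with the median of ratios and -0.068 with quantile normalization, and no enzyme other than Ptges3 changed direction under a setting that was run. Levels of 3 to 6 reads limit what can be said of Ptgds.

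Whether the replicate numbers in the labels pair the samples is not given in the sources used here. The correlations below cannot decide it, since deviations of 3 libraries from their own mean depend on each other. The correlation of the deviations from the group means was 0.515, -0.395 and 0.518 for the numbers 1 to 3, and CTL replicate 2 correlated best with Nelfb-/- replicate 1 (0.480). With a replicate block 4 enzymes were called, with Hpgds (adjusted p = 0.0090) and Ptgs1 (0.0413) added and Ptgds (0.0667) lost. With the block 8 other pathway genes and 2175 of all genes were called.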

Other observations

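The ratios below were chosen after the levels had been seen, and no test was made of them. The ratio of Ptgs2 to Ptgs1, in CPM per kb, was 0.432, 0.490 and 0.451 in CTL replicates 1 to 3 and 4.13, 1.20 and 1.33 in Nelfb-/- replicates 1 to 3. It varied less among the CTL libraries than the level of either cyclooxygenase did, and CTL replicate 3 was the highest CTL library for both genes. All Nelfb-/- libraries had more Ptgs2 than Ptgs1 per kb and all CTL libraries had less. The ratio of Hpgd to Ptges, breakdown enzyme to synthase, was 0.0475, 0.0443 and 0.0217 in CTL and 0.326, 0.379 and 0.453 in Nelfb-/- cells in CPM, and Nelfb-/- replicate 1, which stood apart for several enzymes, lay near the other 2 by this measure.

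Hpgds was also set against the summed level of the 13 macrophage markers. Per 1000 CPM of these markers it was at 12.2, 9.98 and 8.87 CPM in CTL and at 8.89, 6.13 and 5.67 CPM in Nelfb-/- cells, and the highest Nelfb-/- value lay just above the lowest CTL value. By the same measure Tbxas1 was at 1.53 to 2.34 CPM in CTL and 2.04 to 3.36 CPM in Nelfb-/- cells, and Alox5 at 1.43 to 4.02 and 2.41 to 4.31 CPM. Alox5ap was at 17.5 to 25.0 and 13.7 to 16.9 CPM. Hpgd was at 6.27 to 14.1 and 1.23 to 7.16 CPM. Ptgs2, at 7.15 to 58.6 and 3.26 to 5.62 CPM, and Pla2g4a, at 14.7 to 52.7 and 3.82 to 5.72 CPM, were lower per marker CPM in all Nelfb-/- libraries than in any CTL library. The marker sums were themselves higher in every Nelfb-/- library (2383 to 7503 CPM) than in any CTL library (245 to 871 CPM). Any gene that rises less than these sums is lower by this measure. That held for Ptgs2 and Pla2g4a, whose mean CPM were higher in Nelfb-/- cells.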
